A study of Rattus norvegicus with 24 samples.

Results

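Trained tibialis anterior muscles of rats with 20 or 30 days of daily resistance exercise (late, n = 6) were compared with muscles that had trained for 2 or 10 days (early, n = 6), across all measured transcripts. These 12 muscles are all the trained samples among the 24 analysed here. They were taken by their labelled duration of training alone, as 3 animals at each of 4 time points. All animals were male Wistar rats with a pulse generator implanted in the abdomen. Once a day the generator stimulated the nerves of the left hindlimb so that tibialis anterior, which lifts the foot, contracted against its stimulated antagonists, a protocol called SpillOver training. The left muscle is called trained. The right muscle of the same rat was not stimulated and is called contralateral, so it shares the animal, the implant and the surgery, but it is not an untreated animal. Both muscles were removed 1 h after the last bout, so each value holds the acute effect of that bout together with the state reached by earlier training, and these cannot be told apart. Every animal was sampled once, so late and early muscles come from different animals, and whether time points were run in separate batches is not given in the sources used here.

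Loading a muscle sets off several layers of gene expression. Within the first hour, immediate early genes such as Fos, Egr1 and Myc are transcribed. Genes of the Z-disc and of the link between sarcomeres and membrane, among them Ankrd1 and Xirp1, are induced by stretch and damage. The same holds for Mustn1, which codes for a nuclear protein. Repeated activity over weeks is known to raise the content of mitochondria, the enzymes of fat oxidation and, in rodents, to move myosin heavy chain away from the fastest form, type 2B, encoded by Myh4. The comparison asks which parts of this programme differ between muscles new to the training and muscles used to it.

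RNA was read as poly-A enriched mRNA. The deposited values are of the TPM type, that is, scaled for transcript length and to 1 total per sample, so the depth of a library cannot be read from them. The study's methods give a lower bound on reads that held for every sample, and the precision of single values was not derived from it. Here each sample was rescaled by its median-of-ratios factor, and the results are called scaled values. Differences were tested with the moderated limma test on log2(scaled value + 1), with p-values adjusted by Benjamini-Hochberg across every transcript tested and a threshold of 0.05. For transcripts of low level this log scale makes the change look smaller than it is. Nothing in the labels says how far muscles of 1 time point were independent beyond coming from different animals. The share of all deposited values held by mitochondrially encoded mRNA was 23.4% to 28.5% in early trained muscles, 31.1% to 43.9% in late trained muscles and 27.8% to 43.7% in contralateral ones. The 10 skeletal muscle markers tested, such as Ckm and Acta1, were strongly expressed in every trained muscle, with summed scaled values of 49550 to 72910 in early and 40943 to 67995 in late muscles, and 0 of them passed the test (limma, 3 at an unadjusted p under 0.05, 1 higher and 2 lower).

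Late and early trained muscles differed in 484 of 13452 transcripts, 3.6% of those tested. Of these, 228 (1.69%) were higher and 256 (1.9%) were lower in late muscles. The lower transcripts had the larger changes: 69 of them changed by more than 1 on the log2 scale, against 22 of the higher ones. In 193 transcripts (1.43%) every late muscle lay above every early one, and in 201 (1.49%) every late muscle lay below. At an unadjusted p under 0.05, 2693 transcripts (20%) differed. The split into higher and lower depends on how samples are scaled: without the rescaling, 1421 transcripts passed and 88 of them were higher, because that scaling moves the median difference of all transcripts from -0.01 to -0.18.

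**Figure D1:**
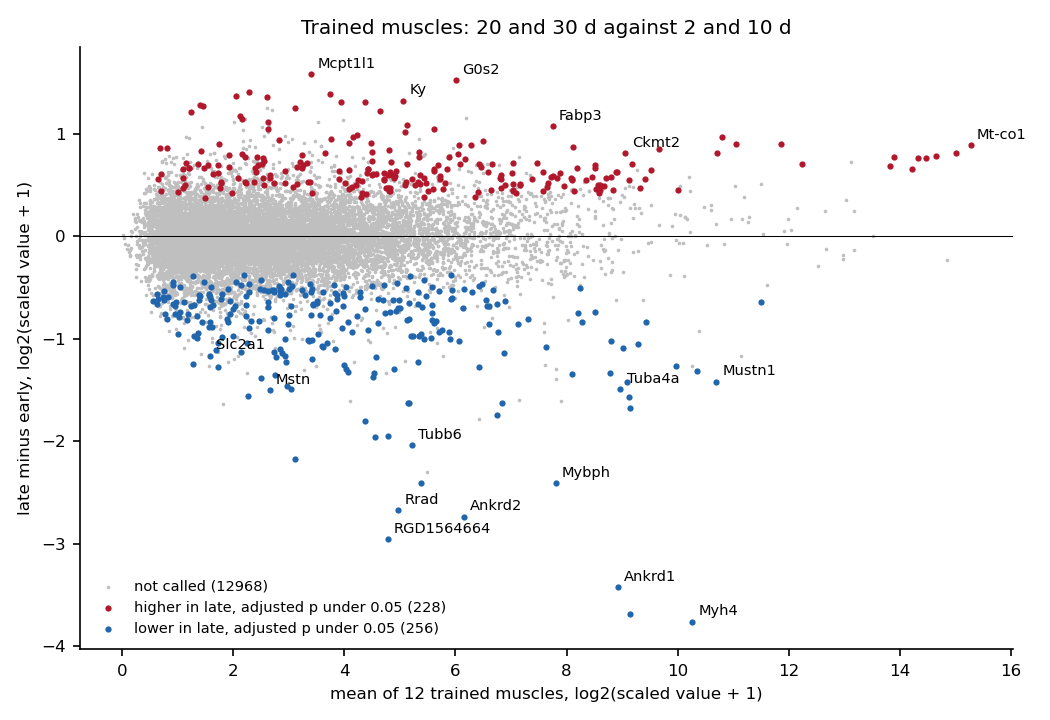
Late minus early difference of each of the 13452 tested transcripts in trained muscles (vertical axis, log2 of scaled value + 1) against its mean level over the 12 trained muscles (horizontal axis, same scale). Red points are the 228 transcripts called higher, blue points the 256 called lower, and grey points were not called; Ankrd1 and Myh4 have the lowest values among those labelled, while Mt-co1 lies at the far right.

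The comparison rested on its outer time points. Without the 30-day muscles 0 transcripts passed with limma (1374 at an unadjusted p under 0.05), and without the 2-day muscles 5 passed. Without the 10-day muscles 757 passed, and without the 20-day muscles 231. Leaving out 1 animal gave between 126 calls (without 30 d replicate 1) and 756 (without 20 d replicate 2). The other animals whose omission moved the count by more than 1.5 times were 2 d replicate 2 (201), 2 d replicate 3 (152), 10 d replicate 3 (732), 20 d replicate 1 (255), 30 d replicate 2 (203) and 30 d replicate 3 (193). On the first principal component of the 12 trained muscles, which held 27.7% of the variance, early muscles lay between -42.9 and 4.1 and late ones between 3.09 and 27.9, so the arms overlapped by a single early muscle, 10 d replicate 3.

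**Figure D2:**
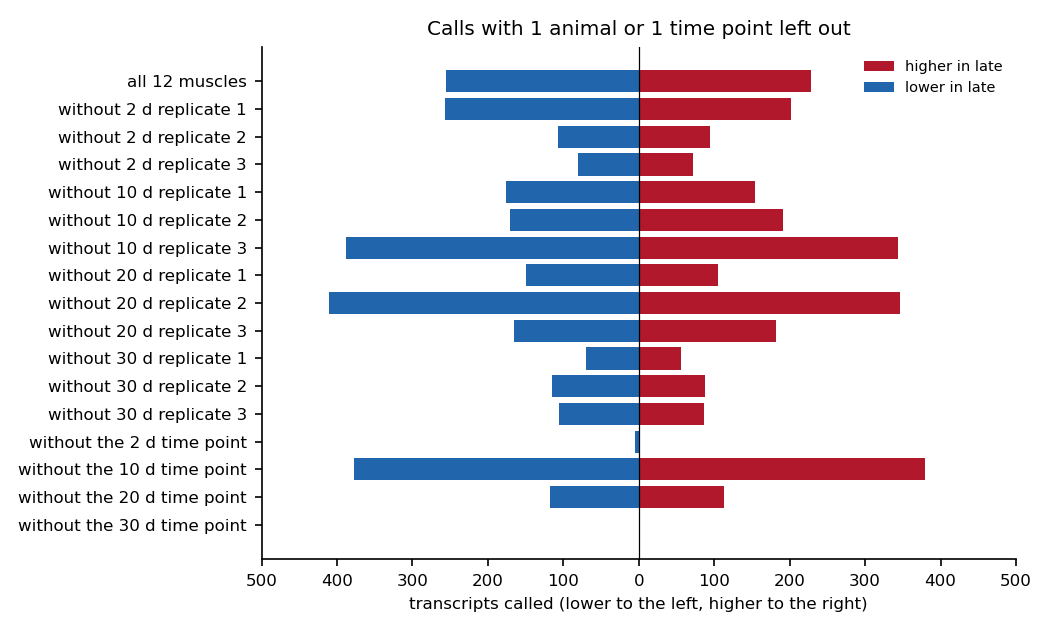
Number of transcripts called in trained muscles with all 12 muscles and with 1 animal or 1 time point left out (bars to the right, higher in late; bars to the left, lower in late). The bars nearly vanish without the 2-day or the 30-day time point, at 5 and 0 calls.

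The contralateral muscles of the same animals served as the background. Compared in the same way, late and early contralateral muscles differed in 0 of 13452 transcripts with limma, with 1790 (13.3%) at an unadjusted p under 0.05. Fbxo32, Mreg and Rai14 shared the lowest adjusted p, of 0.058. Fbxo32 codes for a ubiquitin ligase that rises in muscle wasting. Its contralateral values ran from 14.6 to 34.2 (median 20.4) in early animals and from 51.5 to 105 (median 62.4) in late ones, without overlap, at a log2 difference of 1.57 (adjusted p = 0.058). In trained muscles Fbxo32 was called higher in late muscles (log2 difference 1.04, standard error 0.26, adjusted p = 0.0406), and the difference between its late and early training responses, described next, was -0.53 and did not pass (adjusted p = 0.157). The call was lost in 10 of 12 fits that left out 1 animal.

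To set each trained muscle against its own animal, the training response was taken as the log2 difference between trained and contralateral muscle, and the responses of 6 late and 6 early animals were compared. This is also the fit with the animal as a replicate block. It called 212 transcripts (1.58%), 98 higher (0.729%) and 114 lower (0.847%), with 2328 (17.3%) at an unadjusted p under 0.05. In 201 transcripts (1.49%) every late response lay above every early one, and in 161 (1.2%) every one lay below. Of the 484 transcripts called in trained muscles, 149 were called here too, namely 63 of those higher and 86 of those lower. The direction was the same for 227 of the 228 higher and 253 of the 256 lower transcripts, though both comparisons use the same trained muscles, so this is no independent support. The counts moved with single animals, from 6 without 2 d replicate 3 to 387 without 10 d replicate 3.

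The called transcripts can also be placed relative to the contralateral muscle. They were chosen for a difference within the same trained values, which favours early values on 1 side of the contralateral level, so the counts describe them and are no test. Of the 228 transcripts higher in late muscles, 206 lay below the contralateral level in early animals and 157 of these lay above it in late ones. Their median response went from -0.35 to 0.27 on the log2 scale. Of the 256 lower transcripts, 231 lay above the contralateral level in early animals. In late animals 141 of these were still above it but less so, and 87 were below. Their median response went from 0.75 to 0.13, and the other 25 were below the contralateral level in early animals and further below it in late ones.

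**Figure D3:**
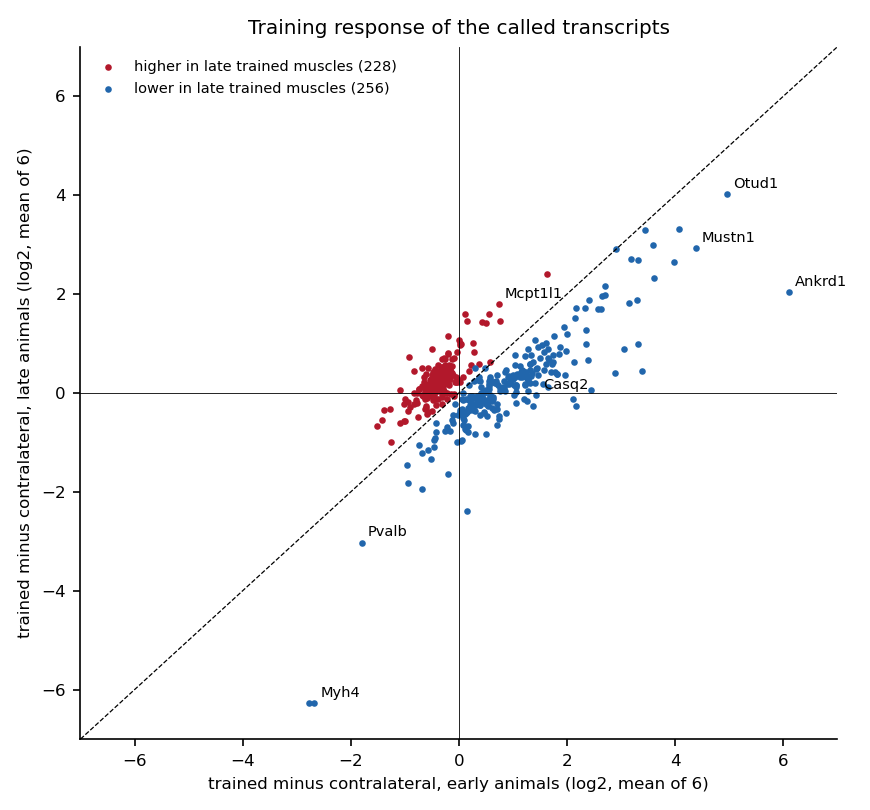
Mean training response (trained minus contralateral, log2) of the 484 called transcripts in the 6 early animals (horizontal axis) and the 6 late animals (vertical axis), with the dashed line marking equal responses. Blue points (lower in late trained muscles) lie mostly to the right of 0 and under the line, red points (higher) mostly to the left of 0 and above it, and the points at the lower left are 2 transcripts of Myh4.

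Gene lists were read against the share of all 11110 tested genes (1 transcript each) that passed, 1.9% higher and 1.95% lower, with a median difference of -0.01. Members of a list share samples and often regulation, so the counts describe these muscles and no list as such was tested.

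**Figure D4:**
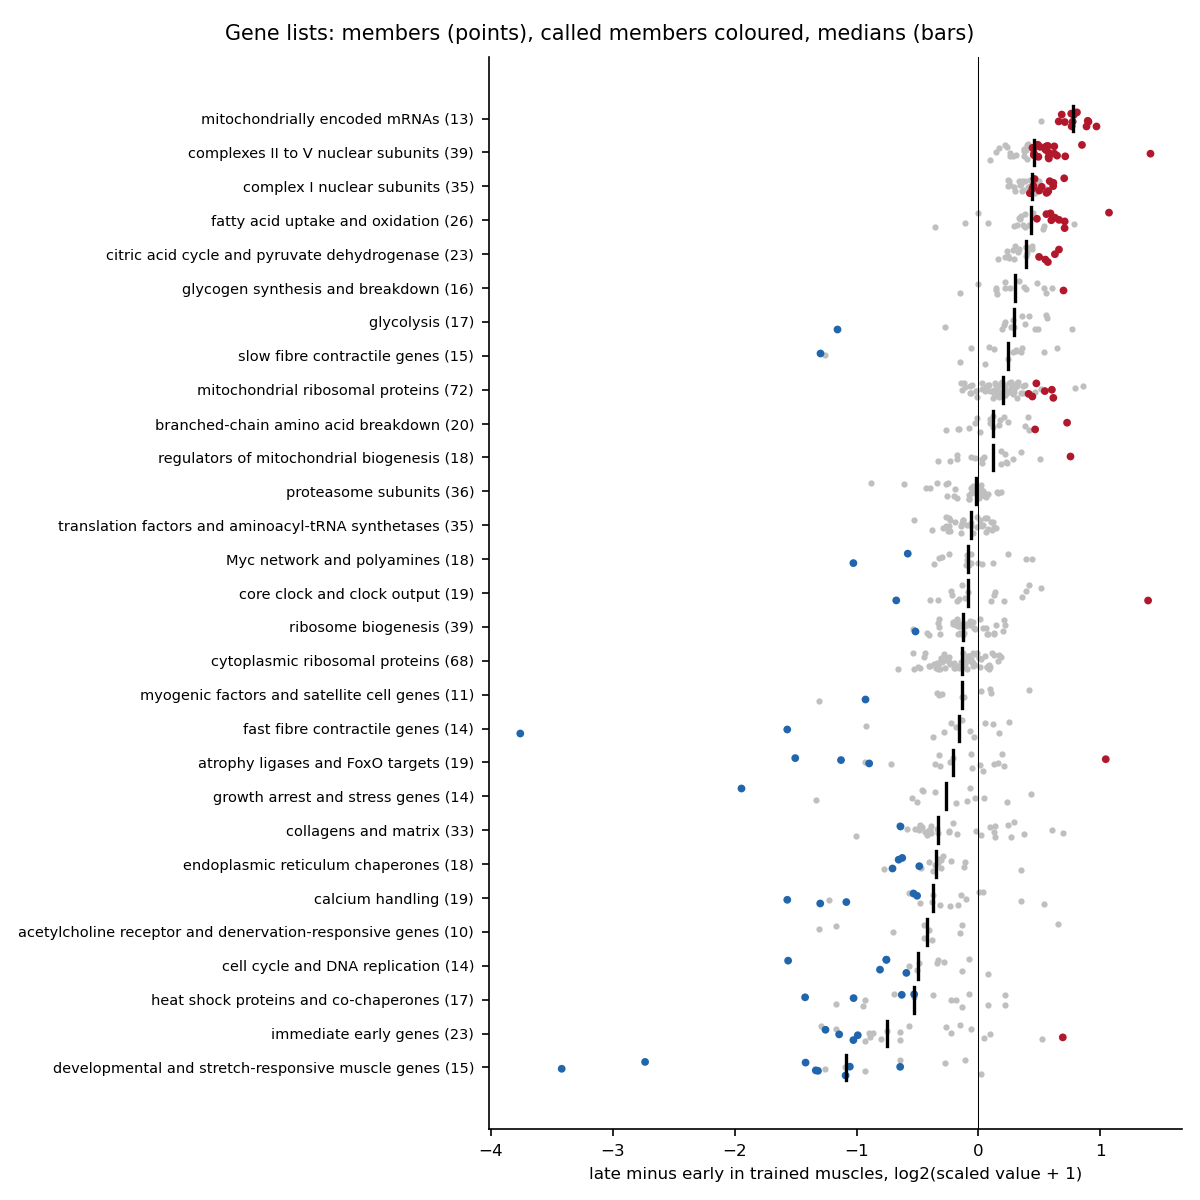
Late minus early difference in trained muscles (log2 of scaled value + 1) for the tested members of each gene list, with the number of members in parentheses. Points are genes (red, called higher; blue, called lower; grey, not called) and black bars are medians, which run from -1.09 for the developmental and stretch-responsive genes to 0.77 for the mitochondrially encoded mRNAs.

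Genes of the Z-disc and the stretch response were lower in late muscles. In the list of developmental and stretch-responsive muscle genes 8 of 15 passed as lower and 0 as higher, the median was -1.09, and 14 of the 15 differences were below 0. Without the 2-day or the 30-day muscles 0 of them passed with limma (12 and 11 at an unadjusted p under 0.05), with medians of -1.02 and -1.11, and without 30 d replicate 1 alone 4 passed.

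Ankrd1, a titin-binding ankyrin repeat protein that also enters the nucleus, ran from 103 to 2670.3 (median 401) in early trained muscles and from 40.0 to 60.1 (median 50.4) in late ones. Every late muscle lay below every early one, although late trained muscles still lay above all contralateral muscles, which ran from 2.45 to 30.3. The log2 difference was -3.42 (standard error 0.60, limma adjusted p = 0.0164), and the mean fell from 1564 at 2 days to 282 at 10, 45.9 at 20 and 53.6 at 30 days. Its training response was 6.10 in early and 2.04 in late animals (difference -4.06, adjusted p = 0.0188). The transcript lies on chromosome 1 from 254726969 to 254735548 of Rnor_6.0, on the minus strand.

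Ankrd2, a related protein of slow and stretched fibres, ran from 29.8 to 295 (median 84.0) in early and from 5.99 to 20.7 (median 14.2) in late trained muscles, again without overlap. Late trained muscles overlapped the contralateral ones, which ran from 8.64 to 22.1, and the training response went from 2.45 to 0.07. The log2 difference between the trained arms was -2.74 (standard error 0.47, adjusted p = 0.0164).

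Mustn1, a small nuclear protein induced in growing and repairing muscle, was among the most abundant of these. It ran from 1125 to 4337 (median 2352) in early and from 663 to 1099 (median 834) in late trained muscles, against 74.0 to 199 in contralateral muscles of both arms. All late values were under all early values but still above every contralateral one, and the log2 difference was -1.42 (standard error 0.28, adjusted p = 0.0185). Leaving out 1 animal lost the call in 1 of 12 fits, at an adjusted p of 0.0503.

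Filamin C (Flnc), which crosslinks actin at the Z-disc, ran from 449 to 1142 (median 501) in early and from 190 to 365 (median 233) in late trained muscles. The arms did not overlap (log2 difference -1.33, standard error 0.23, adjusted p = 0.0164). The Xin proteins, which mark sites of sarcomere damage and repair, moved alike. Xirp1 went from 766 to 889 (median 834) in early to 250 to 636 (median 399) in late muscles (-1.06, adjusted p = 0.0161), and Xirp2 from 398 to 1025 (median 804) to 254 to 391 (median 324; -1.09, adjusted p = 0.022). Late values were under all early ones for both. Hspb7, a small chaperone of filamin C (-1.32, adjusted p = 0.0192), and Fhl1, a LIM protein of the sarcomere (-0.64, adjusted p = 0.0207), passed with arms that overlapped. Csrp3, the muscle LIM protein, was at -1.26 and did not pass (adjusted p = 0.0944).

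**Figure D5:**
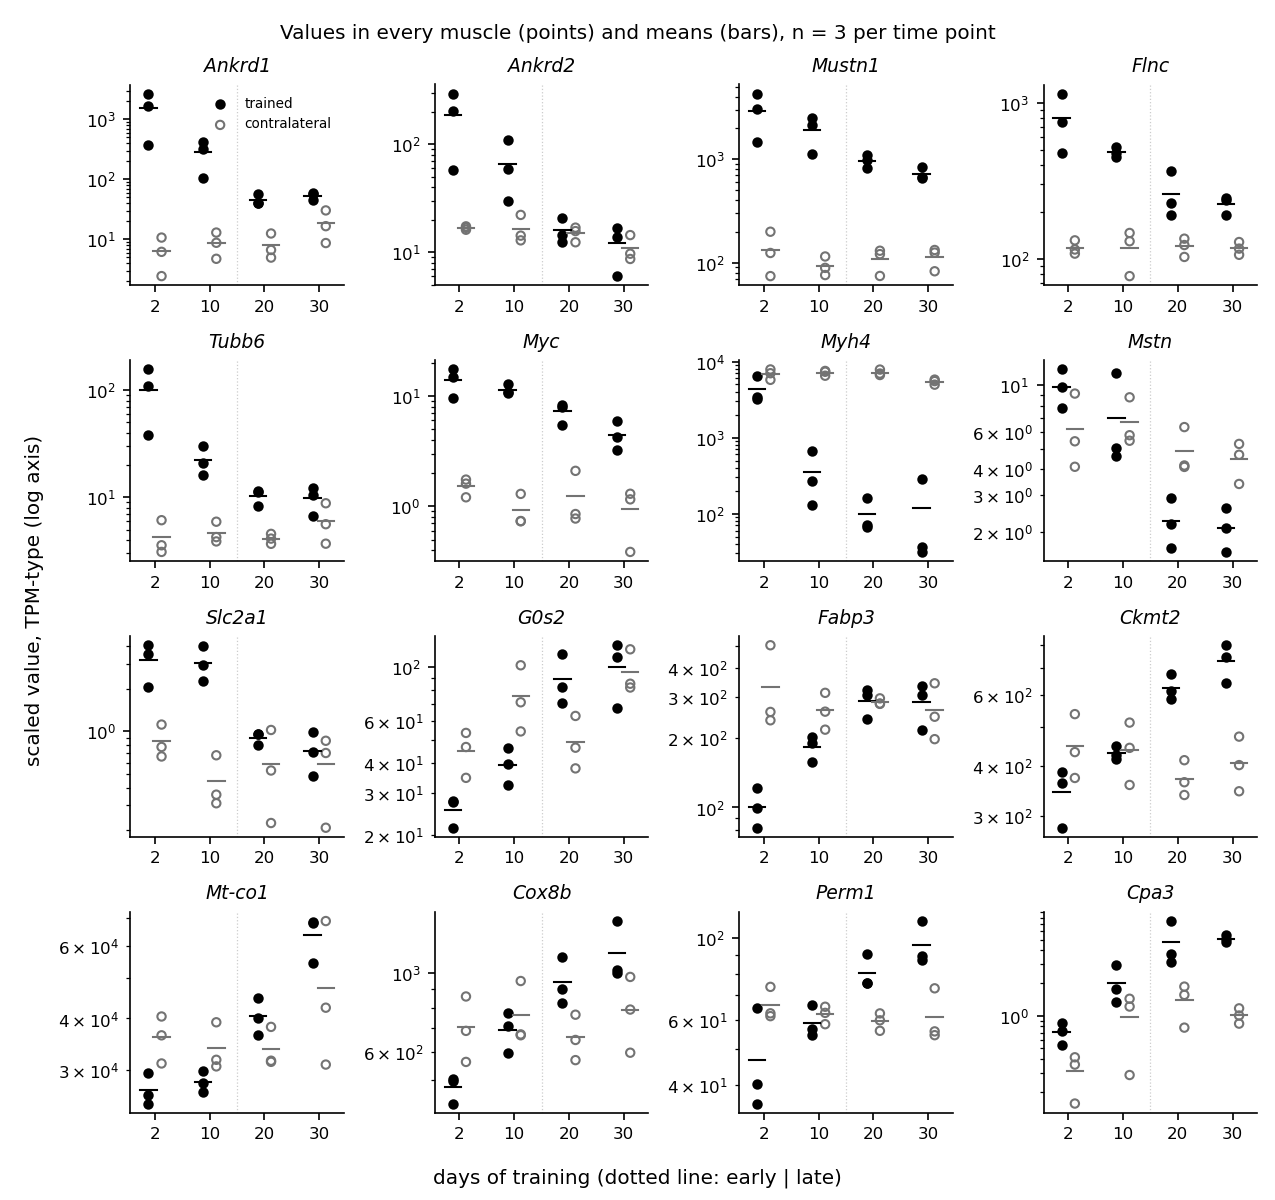
Scaled values (TPM-type, log axis) of 16 genes in each trained muscle (filled circles) and contralateral muscle (open circles) after 2, 10, 20 and 30 days of training, with bars at the means of 3. Ankrd1 falls from a mean of 1564 at 2 days to 53.6 at 30 days in trained muscles, and Mt-co1 rises from 26810 to 63757.

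The 12 transcripts with the largest fall, 1 per gene, among those whose mean reached 10 in either arm without overlap, included Rrad, Mybph, Gadd45a, Pvr, Tubb6, Tubb4b, Tuba4a and 2 genes known by code names, RGD1564664 and LOC498675. Rrad, a small GTPase that restrains calcium channels, had the lowest p of these: it ran from 23.5 to 102 (median 48.2) in early and from 4.35 to 8.69 (median 6.83) in late trained muscles, at a log2 difference of -2.67 (standard error 0.34, adjusted p = 0.00528). It passed without any 1 animal, and among the time points its call was lost only without the 30-day muscles. Mybph, a myosin-binding protein, ran from 141 to 707 (median 372) in early and from 15.3 to 96.5 (median 83.1) in late muscles (-2.41, adjusted p = 0.0185), and late trained muscles overlapped the contralateral ones (38.3 to 135). RGD1564664 (-2.95, adjusted p = 0.00931) and LOC498675 (-2.18, adjusted p = 0.00931) had medians of 44.6 and 14.2 in early and 3.77 and 1.86 in late muscles.

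Of the remaining genes, Gadd45a, a stress gene of growth arrest, had medians of 28.1 and 8.23 (-1.95, adjusted p = 0.0164), and Pvr, a cell adhesion receptor, had medians of 18.5 and 6.59 (-1.80, adjusted p = 0.0261). The tubulin genes code for the subunits of microtubules. Tubb6, the isoform that rises in regenerating muscle, ran from 16.2 to 156 (median 34.1) in early and from 6.69 to 12.2 (median 10.9) in late muscles (-2.04, adjusted p = 0.0303), and the call was lost in 6 of 12 fits without 1 animal. Tuba4a had medians of 719 and 253 (-1.49, adjusted p = 0.00918) and Tubb4b of 160.4 and 43.5 (-1.74, adjusted p = 0.0125), and both were above the contralateral level in early animals and below it in late ones (responses 1.05 and -0.20 for Tuba4a, 0.71 and -0.65 for Tubb4b).

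Promoter sequences are shown for 3 genes that fell together and hold the same short motif. In RefSeq's promoter windows of assembly GRCr8, which run from 250 bases before to 50 after a gene's start, the AP-1 motif TGACTCA was searched on both strands. It was in 14 of 172 windows of genes lower in late muscles (8.14%), in 8 of 163 of genes higher (4.91%) and in 269 of 8108 of all tested genes (3.32%). AP-1 is the site bound by dimers of the Fos and Jun families. The 250 bases before the start of Xirp1 (chr8:128635012-128635261, minus strand), Xirp2 (chr3:72533936-72534185, plus strand) and Klhl40 (chr8:130318543-130318792, plus strand) follow, 5′ to 3′, with the match (2 matches in Klhl40) in capitals, read on either strand.
Xirp1: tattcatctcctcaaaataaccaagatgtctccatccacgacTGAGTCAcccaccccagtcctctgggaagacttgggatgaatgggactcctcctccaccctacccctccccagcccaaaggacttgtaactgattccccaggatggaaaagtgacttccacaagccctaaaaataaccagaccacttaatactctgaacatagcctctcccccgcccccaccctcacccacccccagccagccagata
Xirp2: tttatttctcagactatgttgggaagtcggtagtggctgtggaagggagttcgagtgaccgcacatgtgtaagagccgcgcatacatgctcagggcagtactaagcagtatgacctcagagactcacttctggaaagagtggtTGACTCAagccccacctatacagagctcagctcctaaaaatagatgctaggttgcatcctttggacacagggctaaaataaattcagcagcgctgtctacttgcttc
Klhl40: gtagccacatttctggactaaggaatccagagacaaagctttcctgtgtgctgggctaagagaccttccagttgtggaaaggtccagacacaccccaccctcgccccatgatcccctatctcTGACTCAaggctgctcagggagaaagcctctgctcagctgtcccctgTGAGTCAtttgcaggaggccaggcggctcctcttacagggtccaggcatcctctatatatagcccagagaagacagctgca
Klhl40, which stabilises thin filament proteins, had medians of 372 in early and 145 in late trained muscles (-1.34, adjusted p = 0.0164). The other motifs searched on both strands were the E-box CACGTG (6.98% of windows of lower genes, 9.82% of higher, 9.83% of all), the cyclic AMP response element TGACGTCA (4.65%, 2.45% and 3.15%), a CArG-like motif of serum response factor (0%, 0% and 0.037%) and the TATA box TATAAA (11.6%, 11% and 6.73%). None of these motifs holds another of them. A window is that of the RefSeq gene and need not be the start of the Ensembl transcript measured, and a match is a description of letters, not of binding.

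Of 23 immediate early genes tested, 4 passed as lower in late muscles (Fos, Fosl1, Ier5 and Myc) and 1 as higher (Nr4a2), with a median of -0.75. Contralateral muscles had a list median of -0.36, with 3 of 23 above 0 and 0 called with limma. For the training response 2 passed as higher and 2 as lower, 9 of 23 differences were above 0, and the median response was 1.87 in early and 1.6 in late animals. Leaving out 1 animal gave 2 (without 2 d replicate 2, 2 d replicate 3, 30 d replicate 1 or 30 d replicate 3) to 9 (without 10 d replicate 3) lower calls, with 7 without 20 d replicate 2. Fos, which pairs with Jun proteins to form AP-1, ran from 84.7 to 265 (median 139) in early and from 46.1 to 88.3 (median 77.6) in late trained muscles, with a small overlap (-1.14, standard error 0.26, adjusted p = 0.0303). That call was lost in 6 of 12 fits without 1 animal, with a pseudocount of 0.1 and with the replicate number as a block. The contralateral level of Fos was lower in late animals too (median 13.3 in early and 5.20 in late animals, log2 difference -0.98, adjusted p = 0.266), and its training response was 3.45 in early and 3.29 in late animals (difference -0.16, adjusted p = 0.897).

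Myc, a transcription factor of growth and ribosome production, ran from 9.66 to 17.4 (median 11.8) in early and from 3.23 to 8.33 (median 5.69) in late trained muscles. These ranges did not overlap (-1.03, standard error 0.20, adjusted p = 0.0185), the means fell through 13.98, 11.4, 7.25 and 4.47 at the 4 time points, and the response differed as well (2.62 in early and 1.70 in late animals, adjusted p = 0.0369). Fosl1, another Fos family gene, was low, with medians of 2.29 and 0.632 (-0.99, adjusted p = 0.0172). Egr1, Jund and Atf3 were at -0.89, -1.17 and -1.29 without passing (adjusted p = 0.0523, 0.062 and 0.0904), and for Atf3 the response was 5.07 in early and 4.87 in late animals.

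Nr4a2, an orphan nuclear receptor, was the 1 call in the other direction. It ran from 0.803 to 1.599 (median 1.27) in early and from 1.59 to 3.94 (median 2.26) in late trained muscles (0.69, standard error 0.16, adjusted p = 0.0343), and the arms all but separated. The call was lost in 6 of 12 fits without 1 animal and on the values as deposited (adjusted p = 0.0525). Its relative Nr4a1 was at -0.23 (adjusted p = 0.505). Nr4a3 had medians of 51.1 and 65.6 and did not pass in trained muscles (0.52, adjusted p = 0.223). The training response of Nr4a3 was 3.45 in early and 5.01 in late animals (difference 1.56, adjusted p = 0.0187), and its contralateral median was 3.61 in early and 1.06 in late animals (log2 difference -1.05, adjusted p = 0.175).

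Among heat shock proteins and co-chaperones 4 of 17 passed as lower and 0 as higher, with a median of -0.53. Hspb1, a small heat shock protein that binds the cytoskeleton, ran from 415 to 1476 (median 679) in early and from 161 to 494 (median 274) in late trained muscles (-1.42, standard error 0.32, adjusted p = 0.0294), with overlap. Its partners in clearing damaged filamin also passed, Hspb8 with medians of 519.5 and 279.8 (-1.02, adjusted p = 0.0294) and Bag3 with 139 and 94.8 (-0.63, adjusted p = 0.0428). The fourth was Dnajb4 (-0.53, adjusted p = 0.0287). Crystallin (Cryab) was at -1.17 (adjusted p = 0.0533), with an early range of 1518 to 6583 and a late range of 1016 to 1571. These calls were fragile: without 2 d replicate 3, 30 d replicate 1 or 30 d replicate 3, 0 of the 17 passed with limma (9 or 10 at an unadjusted p under 0.05). None of the 4 called genes passed for the training response, where 1 of the 17 did, as lower. The median response of the list was 1.05 in early and 0.74 in late animals, and the median difference was -0.24. In contralateral muscles 2 of the 17 differences were above 0 (median -0.16, 0 called).

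The endoplasmic reticulum is where secreted and membrane proteins are folded. Of 18 genes listed as its chaperones or related proteins, 4 passed as lower (Pdia6, Creld2, Sec61b and Hspa5), with a median of -0.35. Pdia6, a disulfide isomerase, ran from 30.9 to 48.3 (median 36.1) in early and from 22.1 to 26.1 (median 23.9) in late trained muscles (-0.63, standard error 0.11, adjusted p = 0.0164). Hspa5, the main chaperone of this compartment, had medians of 95.1 and 70.7 (-0.49, adjusted p = 0.0465), a call lost in 9 of 12 fits without 1 animal, with a pseudocount of 0.1 and with the replicate number as a block. The list count was 2 without 2 d replicate 2, 2 d replicate 3, 20 d replicate 3 or any 1 of the 30 d animals. In both genes the late trained muscles lay under all early ones. None of the 4 passed for the training response, and their contralateral muscles had log2 differences of -0.30 (Pdia6), -0.18 (Creld2), -0.24 (Sec61b) and -0.27 (Hspa5).

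Transcripts of the mitochondrial genome were higher in late muscles. Of 13 mRNAs, which code for core subunits of the respiratory chain and of ATP synthase, 12 passed as higher and the median was 0.77. Mt-co1, a catalytic subunit of cytochrome oxidase (M:5323-6867), ran from 24880 to 29780 (median 27174) in early and from 36513 to 68698 (median 49665) in late trained muscles. Every late muscle was above every early one (log2 difference 0.89, standard error 0.16, adjusted p = 0.0164). The time means were 26810, 28042, 40520 and 63757, so the early means were close and those at 20 and 30 days were each higher. Mt-atp8 had the largest difference (0.97, adjusted p = 0.0184), and Mt-nd6, the only one on the other strand, did not pass (0.51, adjusted p = 0.205). With the values as deposited 11 of 13 passed.

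Set against the contralateral muscle, 0 of the 13 mitochondrial mRNAs passed for the training response. The median response over the list was -0.34 in early and 0.26 in late animals, and for Mt-co1 the difference of responses was 0.72 (adjusted p = 0.0996). One contralateral library, 30 d replicate 1, stood apart with 43.7% mitochondrial mRNA. Without that animal 6 of the 13 passed in trained muscles, the fewest on leaving out any 1 animal, and without the 2-day or the 30-day muscles 0 passed with limma (13 and 12 at an unadjusted p under 0.05), with medians of 0.86 and 0.48.

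Part of the nuclear genes of the respiratory chain were called higher too. Of 35 complex I subunits 13 passed as higher and 0 as lower, and all 35 differences were above 0 (median 0.44). Of 39 subunits of complexes II to V 20 passed as higher and again all were above 0 (median 0.46). Ndufb9 of complex I ran from 362 to 543 (median 418) in early and from 587 to 861 (median 713) in late trained muscles, without overlap (0.70, standard error 0.14, adjusted p = 0.0184). Cox8b, a cytochrome oxidase subunit of heart and skeletal muscle, ran from 428 to 770 (median 549) to 823 to 1405 (median 1013), also without overlap (0.85, standard error 0.16, adjusted p = 0.0184). Atp5me and Atp5mc3 of ATP synthase were at 0.71 and 0.64 (adjusted p = 0.029 and 0.0196). Leaving out 1 animal lost the call of Atp5me in 6 and of Atp5mc3 in 2 of 12 fits. Atp5me also lost it with a pseudocount of 0.1.

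The scaling mattered to both counts. Without rescaling, with a median of -0.18 over all transcripts, 2 of 35 complex I and 7 of 39 complex II to V subunits passed, with medians of 0.21 and 0.22. Leaving out 1 animal gave 1 (without 30 d replicate 1) to 19 (without 20 d replicate 2) calls for complex I and 2 (without 2 d replicate 3 or 30 d replicate 1) to 23 (without 10 d replicate 3) for complexes II to V. Leaving out any other animal of 2 d or 30 d, 10 d replicate 1 or 20 d replicate 1 gave 3 to 9 for complex I (2 without 2 d replicate 3) and 3 to 11 for complexes II to V. Also, without the 2-day or the 30-day muscles 0 passed for either list with limma, with complex I medians of 0.30 and 0.34. For the training response 5 genes of each list passed, and the list medians went from -0.28 to 0.32 and from -0.27 to 0.34 between early and late animals. The contralateral muscles moved the other way. There 0 of the 35 and 0 of the 39 differences were above 0, with medians of -0.16 and -0.13 and 0 called. The response differences therefore hold a lower late contralateral level as well as a higher late trained one. Mitochondrial ribosomal proteins, which make the translation machinery inside the organelle, had 6 of 72 genes higher (median 0.20), and on the values as deposited 0, with a median of -0.02. Likewise 0 passed without 2 d replicate 3 or any 1 of the 30 d animals, and 13 without 20 d replicate 2.

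Enzymes that feed the chain moved in the same direction. Of 26 genes of fatty acid uptake and oxidation 9 were higher and 0 lower (median 0.43). Without rescaling 3 passed, and also 3 without 2 d replicate 3 or 30 d replicate 1, with 4 without 30 d replicate 2 and 5 without 20 d replicate 1 or 30 d replicate 3. Fabp3, the fatty acid carrier of muscle, ran from 81.8 to 202 (median 139) in early and from 216 to 336 (median 305) in late trained muscles, where the contralateral medians were 259 and 280. Late muscles lay above all early ones (1.07, standard error 0.21, adjusted p = 0.0194). Hadhb, a subunit of the trifunctional protein of beta-oxidation, went from a median of 227 to 359 (0.66, adjusted p = 0.0164), Hadh from 51.3 to 79.0 (0.71, adjusted p = 0.031) and Cpt2, which hands fatty acids to the matrix, from 22.7 to 34.9 (0.59, adjusted p = 0.0164). For Cpt2 and Hadh the late trained muscles were near the contralateral level, with responses of -0.04 and 0.08, after -0.68 and -0.73 in early animals. Hadh lost its call in 6 of 12 fits without 1 animal, and on the values as deposited neither Hadh (adjusted p = 0.0717) nor Cpt2 (0.0607) passed.

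Of 23 genes of the citric acid cycle and of pyruvate entry 5 were higher (Mpc1, Mpc2, Mdh1, Mdh2 and Pdhb), and all 23 differences were above 0 (median 0.39). Mpc2, a subunit of the pyruvate carrier, had medians of 37.3 and 56.5 (0.66, adjusted p = 0.034) with overlapping arms, and Mdh1 had 409 and 587 (0.63, adjusted p = 0.031). On the values as deposited 0 of the 23 passed with limma, with a median of 0.16. Likewise 0 passed without 2 d replicate 2, 2 d replicate 3, 20 d replicate 1, 30 d replicate 1 or 30 d replicate 2, while 9 passed without 10 d replicate 3, 7 without 20 d replicate 2, 2 without 10 d replicate 1 or 20 d replicate 3 and 1 without 30 d replicate 3. Mpc2 lost its call in 9 and Mdh1 in 6 of 12 such fits. Of 20 enzymes of branched-chain amino acid breakdown 2 were higher, Mcee and Hibadh. In glycolysis 12 of 17 genes were higher at an unadjusted p under 0.05 but 0 passed as higher with limma after adjustment. The single call was lower. Slc2a1, the basal glucose transporter, ran from 2.04 to 4.04 (median 3.21) in early and from 0.484 to 0.983 (median 0.876) in late trained muscles (-1.16, standard error 0.14, adjusted p = 0.00528).

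Of 18 regulators of mitochondrial biogenesis 1 passed, Perm1, and 4 higher and 2 lower had an unadjusted p under 0.05. Perm1 had a median of 55.6 (range 35.6 to 66.0) in early and 88.5 (75.6 to 111) in late trained muscles, no overlap, and a log2 difference of 0.75 (standard error 0.16, adjusted p = 0.0246), and lost its call in 4 of 12 fits without 1 animal and on the values as deposited (adjusted p = 0.068). It is a muscle protein that works with the PGC-1 and ERR factors. Ckmt2, the mitochondrial creatine kinase, ran from 281 to 449.6 (median 403) in early and from 588 to 799.7 (median 662) in late trained muscles, and its contralateral medians were 439 and 383. All late muscles were above all early ones (0.81, standard error 0.13, adjusted p = 0.00948), and the response went from -0.20 to 0.80 (adjusted p = 0.0188).

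Among the 12 largest rises chosen in the same way as the falls, G0s2 came first. It codes for an inhibitor of triglyceride lipase and ran from 21.5 to 45.9 (median 30.1) in early and from 67.4 to 123 (median 96.8) in late trained muscles, without overlap (1.52, standard error 0.20, adjusted p = 0.00528). Ky, a protein of the sarcomere whose loss gives a bent spine in mice, had medians of 19.1 and 44.9 (1.32, adjusted p = 0.0164). Early trained muscles were below the contralateral level of Ky (response -1.39) and late ones closer to it (-0.35). Other rises were Myoc (1.31), Padi2 (1.31), Bri3 (1.25), Ptpn3 (1.22), Fabp3, Asb10 (0.99), Mt-atp8, Acaa2 (0.95) and Dhrs11 (0.91), with adjusted p between 0.00931 and 0.0211. Of these only Ptpn3 passed for the training response. Myoc was higher in late contralateral muscles too (0.73, limma adjusted p = 0.261). The Bri3 value is that of 1 transcript, at 2.75 to 4.95 in early and 5.52 to 18.3 in late muscles. Its call was lost with values summed per gene and without the 10-day muscles.

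The contractile apparatus differed at Myh4, encoding the fastest myosin. The deposited table gives 6 transcripts to Myh4, and 3 of them were assigned here by their order in the myosin cluster to Myh2, Myh1 and Myh4. At the position of Myh4 (chromosome 10 from 53778662 to 53801603) the early trained muscles ran from 132 to 6378 (median 1932) and the late ones from 31.4 to 289 (median 68.4), against 4974 to 7888 in all contralateral muscles. The spread among early muscles was a split by time, with 3200.5 to 6378 at 2 days and 132 to 663 at 10 days, and the 10-day and late values overlapped. The log2 difference was -3.76 (standard error 0.89, adjusted p = 0.0343), and it did not pass for the response (-3.59, adjusted p = 0.0584). Pvalb, the calcium buffer of fast fibres, had medians of 783 and 280 (-1.57, adjusted p = 0.0383) against contralateral medians of 2650 and 2030. Both calls were unstable, lost in 7 (Myh4) and 10 (Pvalb) of 12 fits without 1 animal. Myh1 was at 0.25 (adjusted p = 0.484) and Actn3, the fast Z-disc actinin, at -0.92 (adjusted p = 0.0636). Of 15 slow fibre genes only Casq2 passed, as lower.

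Calcium handling genes had 5 of 19 lower and 0 higher (median -0.38). The count was 1 without 2 d replicate 3 or 30 d replicate 1 and 2 or 3 without any other animal except 10 d replicate 3 (7) and 20 d replicate 2 (5). Casq2, the slow and cardiac calsequestrin, ran from 16.1 to 62.3 (median 43.1) in early and from 9.18 to 18.4 (median 16.8) in late trained muscles, with contralateral muscles between 12.04 and 21.04. Late trained muscles were near the contralateral level and the response went from 1.44 to -0.04 (adjusted p = 0.041). Rcan1, the calcineurin inhibitor and a target of that pathway, had medians of 287 and 119.6 (-1.08, adjusted p = 0.0164), Srl of 357 and 249 (-0.50, adjusted p = 0.022) and Jph1, which ties the membrane systems together, of 59.9 and 40.4 (-0.53, adjusted p = 0.0343). Casq2 and Jph1 each lost the call in 8 of 12 fits without 1 animal.

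Mstn, which codes for myostatin, the secreted inhibitor of muscle growth, ran from 4.59 to 11.9 (median 8.76) in early and from 1.61 to 2.91 (median 2.14) in late trained muscles. No late muscle reached the lowest early one (-1.50, standard error 0.21, adjusted p = 0.00757), and no fit without 1 animal lost the call. Contralateral medians were 5.62 and 4.41, and the response went from 0.31 to -0.82 (adjusted p = 0.0188). Eda2r, a receptor that rises in wasting muscle, had medians of 5.19 and 2.33 (-0.90, adjusted p = 0.0161). The other calls among 19 atrophy genes were Cebpd (lower) and Fbxo32 (higher, above).

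Cell cycle genes were at the edge of detection. Of 23 measured, 14 met the filter on low values, a scaled value of 1 in 3 or more samples. Mki67 met it only through early trained muscles, and for such genes the filter favours a lower late value. The counts therefore describe the members and are no test. Of the 14 tested 5 passed as lower (Mki67, Top2a, Ccna2, Aurkb and Tpx2), and 13 of the 14 differences were below 0. The count was 1 without 30 d replicate 1 or 3, and 2 without 2 d replicate 2, 2 d replicate 3, 10 d replicate 1 or 30 d replicate 2, and Mki67 and Top2a each lost the call in 6 of 12 such fits. Mki67, a mark of dividing cells, ran from 0.703 to 1.58 in early and from 0.126 to 0.786 in late trained muscles (-0.59, adjusted p = 0.0298), and its contralateral values were at most 0.208. In whole muscle, fewer dividing cells and less of this RNA per cell cannot be told apart, and the same holds for every gene here that other cell types also express.

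Several large groups had 0 or 1 call in trained muscles. Of 68 cytoplasmic ribosomal proteins 0 passed with limma (9 lower at an unadjusted p under 0.05, median -0.13), and the same was true of 36 proteasome subunits (5 lower, median -0.02) and of 35 translation factors and aminoacyl-tRNA synthetases (2 lower, median -0.06). On the values as deposited 21 of the 68 ribosomal proteins passed as lower. Of 39 ribosome biogenesis genes 1 passed, Tsr1, and on the values as deposited 3 passed, all as lower. Of 33 collagen and matrix genes 1 passed, Thbs1, while Col1a1 and Col3a1 were at -0.44 and -0.24 (adjusted p = 0.484 and 0.658), with their highest means at 10 days. For the training response 3 of the 33 passed, all as lower, where 0.936% of all tested genes passed as lower. The median difference of responses was -0.44. In contralateral muscles 24 of the 33 differences were above 0 (median 0.18, 0 called).

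Markers of other cell types moved in places. Of 10 mast cell and neutrophil markers listed, 3 were tested and 2 of these were higher in late muscles. The summed scaled value of the 3 was 3.21 to 17 in early and 13.5 to 31.1 in late trained muscles. For the training response 0 of the 3 passed with limma. In contralateral muscles all 3 differences were above 0 as well (median 0.46, 0 called). Mcpt1l1, a mast cell protease, ran from 1.89 to 10.6 (median 3.01) in early and from 8.25 to 16.8 (median 15.3) in late muscles (1.58, adjusted p = 0.0196). Cpa3, mast cell carboxypeptidase, ran from 0.542 to 2.90 (median 1.11) and from 3.10 to 7.44 (median 4.93), without overlap (1.37, adjusted p = 0.0138). Of the other marker lists, 0 of 11 macrophage, 0 of 12 endothelial, 0 of 9 fibroblast, 0 of 7 adipocyte, 0 of 6 erythrocyte and 0 of 1 lymphocyte genes passed, while 1 of 11 smooth muscle genes (Tagln) and 1 of 8 Schwann cell genes passed as lower. At an unadjusted p under 0.05, 1 macrophage, 6 endothelial, 4 fibroblast, 1 adipocyte, 1 erythrocyte and 0 lymphocyte genes differed. Summed fibroblast markers were 185 to 543 in early and 461 to 584 in late trained muscles, and summed macrophage markers 92.8 to 244 and 128 to 161. The part of these cells in the changes above was not tested.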

How the data were processed

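RNA-seq was measured in trained and contralateral tibialis anterior of 12 rats, and groups were taken from the labels. Per the submitters' processing notes and the study's methods, reads were trimmed by the authors in Partek Flow, mapped by STAR against Rnor_6.0 and assigned to Ensembl transcripts, with normalization by DESeq2 stated. The deposited transcript table, however, holds TPM-type values with 1 total per sample, for 20027 transcripts, so no count model was run. The study states a lower bound on reads for all libraries, but the values do not hold the depth of each. A gene-level table and the authors' own comparisons (fold changes and p-values) were not used.

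Values were divided by median-of-ratios factors (0.778 to 1.14, from 16230 transcripts above 0 in all 24 samples). Transcripts reaching a scaled value of 1 in 3 or more samples were kept (13452, of 11110 genes). The limma package (3.58.1, R 4.3.3) was applied to log2(value + 1), 6 late against 6 early muscles, with Benjamini-Hochberg adjustment and a threshold of 0.05. The fit was tested on simulated data. Coordinates are those of the table, with ends taken as 1 less than its stop column. Tables and plots used Python 3.11.15, pandas 2.3.3, numpy 2.4.6 and matplotlib 3.10.9. The 2 muscles of an animal share its number in the labels, and their deviations from the group means correlated at a median of 0.133 (-0.00779 between animals). Of 276 pairs of libraries, 0 were identical.

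The comparison, gene lists and tests were chosen with earlier results of these data known. Genes named are the 12 largest changes in each direction whose mean reached 10 in either arm without overlap, up to 4 called members of each list by size (the most abundant where none was called), the 6 largest in each direction of the training response, and genes the study makes claims on. Hspb7, Xirp1, Xirp2, Fhl1, Csrp3, Nr4a2, Egr1, Cryab, Actn3, Srl, Mki67, Cpt2, Pdhb, Klhl40 and the genes of the closing observations were added after their values were seen. Some genes that meet this rule are not reported here. Alternatives were the values as deposited, a pseudocount of 0.1, no filter, a mean of at least 10, an intensity trend, a threshold of 0.01, sums per gene, 4 time points fitted, replicate number or animal as a block, and each animal and each time point left out.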

Additional observations from a re-analysis of the deposited data

Results flagged for a closer look

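The training response, trained minus contralateral muscle of the same animal on the log2 scale, differed between late and early animals in 212 transcripts (limma, Benjamini-Hochberg adjusted p under 0.05). The values of the named genes that passed are given as differences, late minus early. They were -4.06 for Ankrd1, -2.38 for Ankrd2, -2.43 for Mybph, -1.45 for Mustn1, -1.33 for Hspb7, -1.36 for Flnc, -1.38 for Xirp2, -0.69 for Fhl1, -1.33 for Klhl40, -1.35 for Pdlim3 and -1.25 for Cryab. Among the tubulins they were -2.17 for Tubb6, -1.36 for Tubb4b and -1.25 for Tuba4a. Signalling and transport genes were at -2.48 for Rrad, -1.10 for Slc2a1, -1.28 for Hbegf, -1.26 for Prkag3 and -1.64 for Uck2, and the code-named genes at -2.95 for RGD1564664 and -2.33 for LOC498675.

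Transcription factors gave -0.92 for Myc and -0.94 for Fosl1, against 1.05 for Nr4a2 and 1.56 for Nr4a3. Calcium handling genes gave -1.48 for Casq2 and -0.55 for Srl. Cell cycle genes gave -0.61 for Mki67, -0.85 for Top2a and -0.74 for Aurkb, all at low values. Mki67 met the filter on low values only through early trained muscles. Mstn and Eda2r were both at -1.13.

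Among enzymes and mitochondrial proteins that passed as higher, the differences were 0.99 for Ckmt2, 0.84 for Perm1, 0.94 for Mpc2, 0.82 for Hadh, 0.71 for Hadhb, 0.64 for Cpt2, 0.71 for Ndufa9, 0.77 for Ndufs3, 0.78 for Atp5mc3, 0.80 for Mdh1, 0.77 for Pdhb, 0.82 for Mcee and 0.99 for Nudt7. Others were 1.29 for G0s2, 1.18 for Ptpn3, 1.18 for Nmrk2, 0.99 for Ca14, 0.68 for Fndc5 and 0.95 for Igfbp5.

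In 5 of 202 groups of 6 muscles a single muscle stood far from the others by Dixon's test, where chance gives about 1 in 20. Mybph was 15.3 in 30 d replicate 1, the lowest late muscle (median 83.1). Ier5 was 9.58 in 10 d replicate 3, the lowest early muscle (median 22.1). Dhrs11 was 32.7 in 30 d replicate 1, the highest late muscle (median 27.2). Pdhb was 129.0 and Mcpt1l1 8.25 in 20 d replicate 2, in each case the lowest late muscle (medians 168.7 and 15.3).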

How the results depend on the processing

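Counts of called transcripts moved more than directions did. In trained muscles (484 as reported) they were 22 at an adjusted p under 0.01, 1421 on the values as deposited, 270 with a pseudocount of 0.1, and 5, 757, 231 and 0 without the 2, 10, 20 or 30 d time point. With the replicate number as a block the count was 372. Each animal has 1 trained muscle, so the animal as a block means the training response (212), which is a different quantity. For the training response (212 as reported) the counts were 2 at an adjusted p under 0.01, 64 with a pseudocount of 0.1, 593 with a mean of at least 10, 399 with an intensity trend, 456 with sums per gene, 64 with the replicate number as a block, 303 with no replicate block, and 0, 1 and 0 without the 2, 20 or 30 d time point. Contralateral muscles (0 as reported) gave 1 with a mean of at least 10, 1 with sums per gene, 3 with 4 time points fitted and 18 without the 10 d time point. Leaving out 1 animal gave 126 to 756 calls in trained muscles, 6 to 387 for the response and 0 to 6 in contralateral muscles. With a mean of at least 10, 55.2% of trained calls and 64.6% of response calls were higher, and on the values as deposited 6.19% and 6.48%. The trained median over all transcripts was then -0.18 and that of the response -0.18. The causes of these movements were not tested, except that fewer samples or transcripts enter some fits.

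Directions reversed for a few genes. The response of Atf3 was 0.0258 with a pseudocount of 0.1 and ran from -0.50 to 0.012 on leaving out 1 animal, and that of Fos ran from -0.43 to 0.13 and was 0.39 without the 2 d time point. Without that time point Myh1 in trained muscles was -0.16, the response of Per2 -0.031 and that of Myf6 0.15. Without the 10 d time point Col3a1 was 0.17 in trained muscles and the response of Myh1 0.017. Without the 30 d time point Col1a1 was 0.073 and Col3a1 0.13 in trained muscles. Depth limits could not be set, since the values carry none.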

Other observations

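The genes given here were picked after their values were seen, so these are descriptions. Hbegf, a ligand of the epidermal growth factor receptor, was at -1.62 on the log2 scale, and Tnfrsf12a, the receptor of TWEAK, at -1.27. Prkag3, a regulatory subunit of the AMP-activated kinase found in fast muscle, was at -1.29, and its training response went from -0.68 in early to -1.94 in late animals. Igfbp5, which binds insulin-like growth factors, rose by 1.09. These 4 calls had limma adjusted p between 0.0164 and 0.0277. Leaving out 1 animal lost the call of Igfbp5 in 5 of 12 fits, of Hbegf in 2, and of Tnfrsf12a and Prkag3 in 0. Igfbp5 also lost it with a pseudocount of 0.1. Fndc5, the precursor of irisin, ran from 36.6 to 58.6 in early and from 75.0 to 94.9 in late trained muscles, without overlap (0.89, limma adjusted p = 0.00528).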
